A study of Schizosaccharomyces pombe with 2 samples.

Results

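Introns of 45 nt or less are the shortest that fission yeast, Schizosaccharomyces pombe, carries in coding sequence. The genes described here had exactly 1 intron of 20 to 45 nt in the RefSeq annotation, placed inside the coding sequence, and a mean unspliced percentage between 1% and 50%. Genes whose symbols begin with rpl, rps, rpp, mrp, mug or meu were left out, and each library had to hold at least 50 mature and premature counts for the gene. By this rule 68 of the 1144 genes in the files were members, which is 5.94%. The unspliced percentage is the premature count as a share of premature plus mature counts. The members were chosen by that measured value and by the counts, so their levels are given as a description.

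The study used multiplexed primer extension sequencing (MPE-seq), in which gene-specific primers next to introns start reverse transcription, so that reads are directed at the sequence around introns. Its only group was the Bioneer WT strain, sequenced as 2 libraries, replicate 1 and replicate 2, with no mutant or treatment. The cells grew in YES, a rich medium, at 30 °C and were collected in log phase at an optical density of 0.8. The labels do not state whether the libraries came from separate cultures, so their spread may be technical. A value from a culture is an average over cells, so a few cells with unspliced RNA and a little unspliced RNA per cell cannot be told apart.

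As background, an intron is removed by the spliceosome, which reads a 5′ splice site, a branch site adenosine and a 3′ splice site. The U1 snRNP binds the first of these and the U2 snRNP the second. In fission yeast introns are short and rich in A and T, and are thought to be recognised as units, with the splice sites paired across the intron. In a very short intron these elements lie close together, with few bases to spare.

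The introns with the highest unspliced percentages are printed first, because they show which splice site and branch site letters lay in the least spliced introns. Capitals mark the first 6 bases, the last 3 bases and, where present, the last match to CTAAC or CTAAT, or to the variants CTGAC and CTGAT, which are common forms of the fission yeast branch site. Sequences and positions are those of RefSeq assembly ASM294v3, written 5′ to 3′ along the gene, and the count files themselves carry gene names only.

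fmc1, chrI:3202834-3202876, plus strand: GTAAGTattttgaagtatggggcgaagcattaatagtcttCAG
ppx1, chrI:3946696-3946737, plus strand: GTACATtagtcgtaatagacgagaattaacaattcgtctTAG
chp2, chrII:4350559-4350595, plus strand: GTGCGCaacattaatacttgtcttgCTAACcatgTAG
slx9, chrI:498174-498214, plus strand: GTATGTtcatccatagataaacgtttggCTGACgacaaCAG

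The members with the lowest unspliced percentages are shown for comparison.

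tfb2, chrII:3754393-3754437, plus strand: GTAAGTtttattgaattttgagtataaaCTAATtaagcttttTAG
mtr3, chrII:3888126-3888163, minus strand: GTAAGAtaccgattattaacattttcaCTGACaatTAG
rga8, chrI:574225-574268, minus strand: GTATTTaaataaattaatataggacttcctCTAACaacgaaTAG
toc1, chrII:2403704-2403745, plus strand: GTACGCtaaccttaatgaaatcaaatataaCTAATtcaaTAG

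These 8 sequences begin with GT and end with AG, as did all 68 member introns. Of the 4 highest, ppx1 began with GTACAT and chp2 with GTGCGC, and each was the only member with its hexamer. The same held for rga8 of the 4 lowest, with GTATTT. It also held for further members, at levels from 2.42% to 10.1%. No match to the searched forms lay in fmc1 or ppx1. They held the near relatives TTAAT and TTAAC, which were looked for after the values had been seen. Each of the 4 lowest introns held a match, as did 48 of all 68 members. As the further values show, the letters printed here did not by themselves sort the members by level.

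Most members lay low in the window of 1% to 50%. Over the 68 genes the median was 5.78% unspliced in replicate 1, 5.51% in replicate 2 and 5.93% on the mean of both, with quartiles of 3.31% and 10.9%. On that mean 29 members lay under 5%, 19 from 5% to under 10%, and 20 at 10% or more. Of the last group 7 were at 20% or more and 4 at 30% or more. The sum of mature and premature counts per member ran from 52 to 1007 in replicate 1 (median 148) and from 53 to 1610 in replicate 2 (median 220). These small numbers set the precision, since 33 members in replicate 1 and 20 in replicate 2 rested on fewer than 10 premature counts. The median width of the 95% Wilson interval was 7.54 percentage points in replicate 1 and 6.08 in replicate 2. The intervals cover counting error only. Use of molecular identifiers is not given in the sources used here, and without them reads are not independent molecules.

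**Figure D1:**
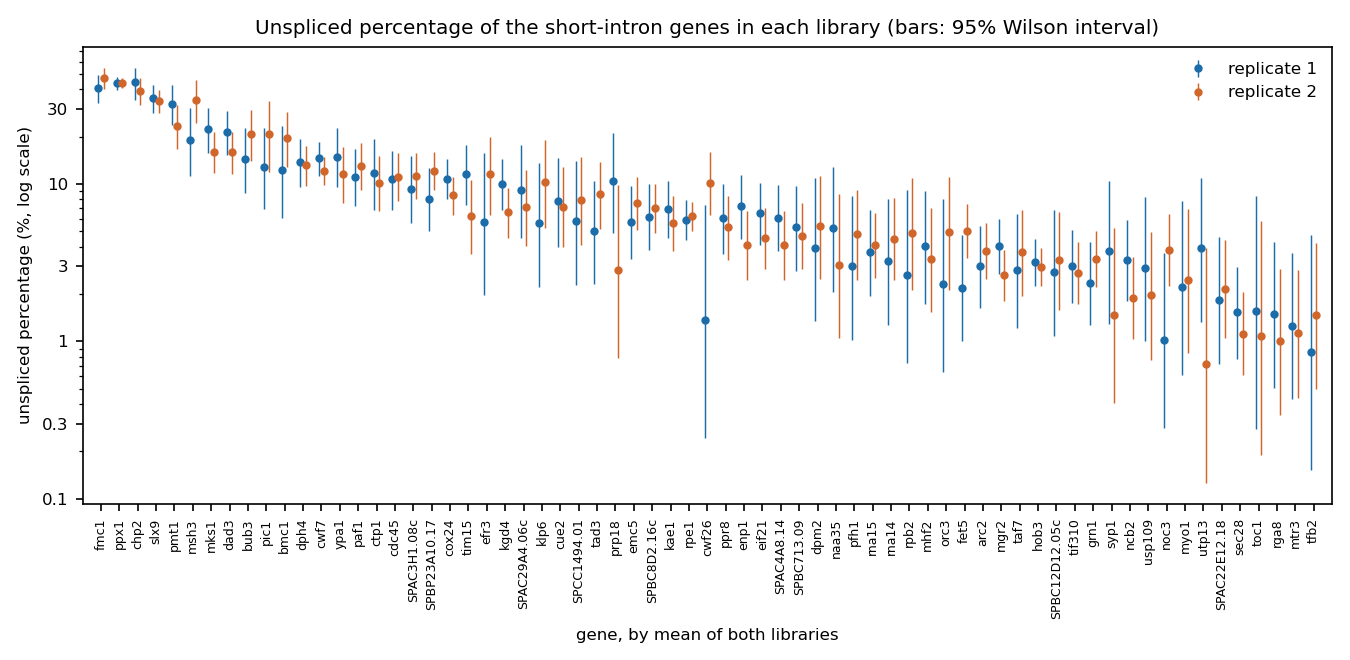
Unspliced percentage (log scale) of 67 of the 68 short-intron genes in replicate 1 and replicate 2, ordered by the mean, with 95% Wilson intervals as bars. The genes run from fmc1 at 44.2% to tfb2 at 1.16%, and in each gene drawn the intervals of the libraries overlap.

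In 4 members more than 30% of the counts were premature. The highest was fmc1 (SPAC1486.11), for an assembly factor of the mitochondrial ATP synthase, with 52 premature of 127 counts in replicate 1 (40.9%) and 83 of 175 in replicate 2 (47.4%). The exopolyphosphatase gene ppx1 (SPAC2F3.11), whose enzyme degrades inorganic polyphosphate, had 241 of 552 (43.7%) and 425 of 970 (43.8%). With these larger counts ppx1 had the narrowest intervals of the 4, 39.6% to 47.8% in replicate 1 and 40.7% to 47.0% in replicate 2. Its mean was 43.7% ± 0.110 (SD, n = 2), an SD far below counting error that does not measure precision. The heterochromatin protein gene chp2 (SPBC16C6.10) had 38 of 86 (44.2%) and 60 of 153 (39.2%). The ribosome biogenesis gene slx9 (SPAPB21F2.03) had 59 of 168 (35.1%) and 90 of 266 (33.8%). In each library all 4 lay above 30%.

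Below them came pmt1 (SPBC19C2.02), for a methyltransferase of the Dnmt2 family, with 30 of 93 counts premature in replicate 1 (32.3%) and 27 of 115 in replicate 2 (23.5%). The mismatch repair gene msh3 (SPAC8F11.03), with the shortest member intron at 35 nt, had 12 of 63 (19.0%) and 25 of 73 (34.2%). Further down was mks1 (SPAC1420.01c), with 27 of 121 (22.3%) and 35 of 218 (16.1%). Of these 3 genes msh3 was higher in replicate 2, and pmt1 and mks1 were lower.

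At the other end the TFIIH subunit gene tfb2 (SPBC13G1.13) had 1 premature of 116 counts in replicate 1 (0.862%) and 3 of 205 in replicate 2 (1.46%). The exosome subunit gene mtr3 (SPBC211.08c) had 3 of 238 (1.26%) and 4 of 356 (1.12%), and rga8 (SPAC13A11.01c) had 3 of 202 (1.49%) and 3 of 300 (1.0%). With 1 premature count in each library, toc1 (SPBP18G5.03), for a Tor2-interacting protein, stood at 1.56% and 1.08%. Their intervals reach above these values, for toc1 in replicate 1 to 8.33%. The coatomer gene sec28 (SPBC24C6.05), with 524 and 893 counts, was better measured, at 1.53% and 1.12%. The next were the uncharacterized SPAC22E12.18 at 1.83% and 2.17%, the U3 snoRNP gene utp13 (SPCC16A11.02) at 3.90% and 0.714%, and the myosin I gene myo1 (SPBC146.13c) at 2.22% and 2.46%. Among these 8 lowest, the order is not resolved by the counts.

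Among the 6 members with the most counts, ppx1 alone was high, and the others had means from 1.32% to 6.08%. The largest sums belonged to hob3 (SPBC725.09c), for a BAR domain protein that shapes membranes, at 3.18% of 1007 counts and 2.98% of 1610. The ribulose phosphate 3-epimerase gene rpe1 (SPAC31G5.05c) had 5.93% of 725 and 6.22% of 1222. The gene mgr2 (SPBC27.06c), for a mitochondrial protein, had 4.01% of 548 and 2.63% of 988. The eIF3j gene tif310 (SPAC3A12.13c) had 3.0% of 433 and 2.73% of 659. Together with ppx1 and sec28 these are the 6 deepest members, and in replicate 2 the interval of ppx1, 40.7% to 47.0%, lay far from that of hob3, 2.26% to 3.93%.

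By role, 9 members act in RNA processing, with a median of 5.78%. Among splicing factors, cwf7 (SPBC28F2.04c), of the Prp19 complex, had 51 of 351 counts premature (14.5%) and 83 of 685 (12.1%). The U5-associated second-step factor gene prp18 (SPCC126.14) had 6 of 57 (10.5%) and 2 of 70 (2.86%), and cwf26 (SPCC1620.10) had 1 of 73 (1.37%) and 16 of 157 (10.2%). The U1-associated gene usp109 was at 2.45% and SPAC29A4.06c, annotated as a splicing protein, at 8.15% on the mean. The genes rna14 and rna15, whose budding yeast counterparts act in cleavage and polyadenylation, were at 3.87% and 3.89%, and bmc1, for a Bin3 family protein, was highest of the 9 at 15.9%. So transcripts of several splicing factors were themselves among the members, at levels on both sides of the member median.

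Of 10 genes for ribosome assembly, tRNA modification and translation the median was 5.59%. Below slx9 came dph4 at 13.5%, tad3 at 6.79%, kae1 at 6.29%, enp1 at 5.64%, eif21 at 5.54%, grn1 at 2.85% and noc3 at 2.42%, besides tif310 and utp13. The enzymes of Tad3 and Kae1 modify tRNA, and Dph4 acts in diphthamide synthesis on elongation factor 2. Chromatin and transcription genes were divided, with a median of 3.77% over 7, from 1.16% for tfb2 to 41.7% for chp2. The gene pmt1, at 27.9% on the mean, was placed here by its annotation as a DNA methyltransferase. The Paf1 complex gene paf1 (SPAC664.03) had 11.1% and 13.0%, while the TFIID gene taf7 (SPAC13F5.02c) had 2.82% and 3.69%. The RNA polymerase II gene rpb2 (SPAC23G3.01) had 2.63% and 4.90%, and the corepressor gene ncb2 was at 2.59% on the mean.

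Among 6 genes of DNA replication and repair, with a median of 7.41%, the replication factor gene cdc45 (SPAC17D4.02) had 18 of 168 counts premature (10.7%) and 27 of 243 (11.1%). The repair nuclease gene ctp1 had 11.8% and 10.1%, and the means were for the helicase gene pfh1 3.91%, for mhf2 3.67% and for the origin recognition gene orc3 3.64%. Mitosis and cytoskeleton genes had a median of 3.39% over 9. The higher ones were the kinetochore gene dad3 (SPAC14C4.16), with 29 of 136 (21.3%) and 34 of 213, at 18.6% ± 3.79 (SD, n = 2), the spindle checkpoint gene bub3 (SPAC23H3.08c), with 14.4% and 20.8%, and the INCENP-like gene pic1 (SPBC336.15), with 9 of 70 (12.9%) and 11 of 53 (20.8%). The kinesin-8 gene klp6 was at 7.95%, arc2 of the Arp2/3 complex at 3.39% and syp1 at 2.62%. These role groups were drawn up after the values had been seen.

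Of 7 genes for mitochondrial proteins, with a median of 8.89%, 1 lay under 5%. The gene cox24 (SPAC1782.04), annotated as a mitochondrial ribosomal protein, had 39 of 360 counts premature (10.8%) and 45 of 531 (8.47%). The import gene tim15 (SPAC24H6.02c) had 17 of 147 (11.6%) and 12 of 193 (6.22%), kgd4 was at 8.30% and the PPR repeat gene ppr8 at 5.67%. Of the 8 genes for membranes, traffic and signalling (median 5.67%), ypa1, for a regulator of type 2A protein phosphatase, was at 13.2%, efr3 at 8.63%, emc5 at 6.67%, dpm2 at 4.68% and the GTPase gene fet5 at 3.62%. The 7 members for metabolism and other enzymes had a median of 6.08%, including cue2 at 7.48%, SPCC1494.01 at 6.86%, SPAC4A8.14 at 5.10%, naa35 at 4.16% and the carrier gene SPBC12D12.05c at 3.01%. Of 5 uncharacterized genes, the highest was SPAC3H1.08c at 10.3%, followed by SPBP23A10.17 at 10.1%, SPBC8D2.16c at 6.61% and SPBC713.09 at 5.0%. Each role group therefore held members on both sides of the overall median.

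Differences between the libraries were under 2 percentage points in 36 members and over 5 in 13. The median SD between libraries was 1.37 points in the members. It was 1.02 over all measured genes, which were not limited to 1% to 50%. By the two-sided Fisher exact test with Benjamini-Hochberg adjustment over 864 genes, 0 of 68 members were called for a difference in unspliced share, against 1.62% of all genes tested. At an unadjusted p under 0.05 there were 2 members (2.94%), against 10.3% of all genes tested. The smallest p among the members was that of cwf26, higher in replicate 2 (adjusted p = 0.274, Fisher exact test). The intervals above bound what this test could detect. Squared, averaged and rooted over members, the gap between libraries came to 4.0 percentage points, where counting noise alone would give 3.28. Among 618 other genes at 1% to 50% the same measure came to 4.51, where counting would give 3.47. The unspliced percentage was higher in replicate 2 for 33 members and lower for 35. The widest gap was that of msh3, 15.2 points, and those of cwf26, pmt1, pic1 and prp18 were also among the 6 widest.

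**Figure D2:**
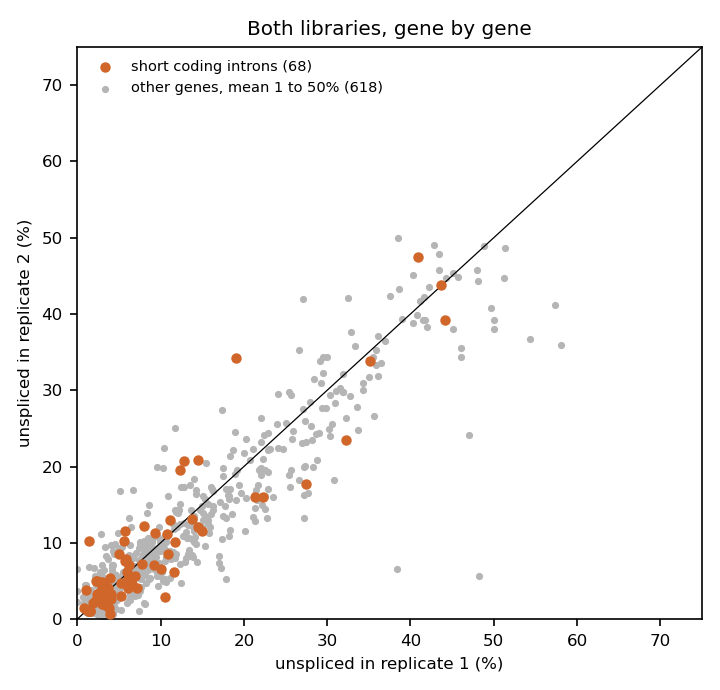
Unspliced percentage in replicate 1 (x axis) and replicate 2 (y axis) for the 68 short-intron genes and 618 other genes with a mean of 1% to 50%, with the line of equal values. The short-intron genes lie along the line, with msh3 (19.0% and 34.2%) the farthest above it.

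Exonic counts differed between libraries in most members, as in most genes. Scaled to the library totals, 52 of the 68 members differed between libraries by the two-sided exact binomial test with Benjamini-Hochberg adjustment, against 72.7% of all genes tested. All 52 were lower in replicate 2, against 64.0% of all genes tested, and 0 were higher, against 8.78%. As a log2 ratio, replicate 2 over replicate 1, the members had a median of -0.14 and all genes one of -0.13. DESeq2 size factors centre that median. With them 20 members were called, against 36.9% of all genes tested, 8 of them higher in replicate 2 (all genes 23.2%) and 12 lower (all genes 13.6%). The direction of the calls thus depended on the scaling, and no direction is read for the members.

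The window of 1% to 50% cut the short introns at both ends. The files held 136 genes with a single coding intron of 20 to 45 nt. Of these, 10 had an excluded symbol, 41 others had too few counts, 10 lay under 1%, 7 lay over 50% and 68 were members. The shortest was 34 nt and the shortest with enough counts was that of msh3. The members at the lower edge, tfb2 (1.16%), mtr3 (1.19%) and rga8 (1.24%), were next to vma6 (0.988%), nup44 (0.981%) and nop12 (0.918%) just outside. At the upper edge chp2 (41.7%), ppx1 (43.7%) and fmc1 (44.2%) were next to met6 (53.2%), apn2 (74.1%) and pus2 (76.4%). At the length limit, the best counted members of 45 nt were rpe1 (6.08%), kgd4 (8.30%) and fet5 (3.62%). Genes just outside this limit, with 46 nt, included coa4 (5.43%), otu2 (5.23%) and utp14 (1.53%).

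Among the 7 short introns over 50% the sums ran from 50 counts, for apn2 in replicate 1, to 803, for etp1 in replicate 2. For SPBC409.08, a transporter gene, all 198 and 299 counts were premature, and SPAC16E8.05c was at 97.5% and 98.1%. These introns began with GTTGGA and GTTTGT. The formaldehyde dehydrogenase gene fmd3 was at 95.7% and 89.7%, and the gene etp1, for a fusion of a monooxygenase and ferredoxin, at 87.8% of 450 counts and 85.4% of 803. The pseudouridine synthase gene pus2, the endonuclease gene apn2 and met6 of methionine synthesis made up the rest. The 10 genes under 1% were the eIF3 genes tif301 (0.506%) and tif307 (0.309%), the proteasome genes rpn8 (0.716%) and rpt6 (0.261%), the ATP synthase gene atp4 (0.524%), the nucleoporin genes nup44 and nup124 (0.610%), and vma6, nop12 and ubp3 (0.722%). In nup124 no premature count among 78 in replicate 1 allows a share of up to 3.85%. Of the genes with an excluded symbol, 6 had enough counts, from rpl2701 at 0.383% and rps901 at 0.869% to mug98 at 80.9% and mug30 at 95.5%. Short introns thus spanned nearly the whole scale, of which the members are the middle.

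Set beside longer coding introns, the members stood near the low end. Under the same filters the median was 5.93% for the 68 members, 5.39% for 169 introns of 46 to 60 nt, 7.76% for 147 of 61 to 100 nt, 9.80% for 133 of over 100 to 200 nt and 11.8% for 87 over 200 nt. Without the window, 85 measured introns of 20 to 45 nt had a median of 5.67%, against 7.98% for all 616 longer ones. The shortest band had 11.8% of its introns under 1% and 8.24% over 50%. In the band of 46 to 60 nt these shares were 9.09% and 5.56%, and over 200 nt they were 0% and 11.2%. Introns are not replicates and this value chose the members, so no test of the difference is given. By length the members had medians of 5.54% for 15 introns of 35 to 39 nt, 6.67% for 25 of 40 to 42 nt and 5.66% for 28 of 43 to 45 nt. The Spearman correlation with length across the 68 members, which share the libraries, was -0.08. Across the 85 measured short introns it was -0.18.

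**Figure D3:**
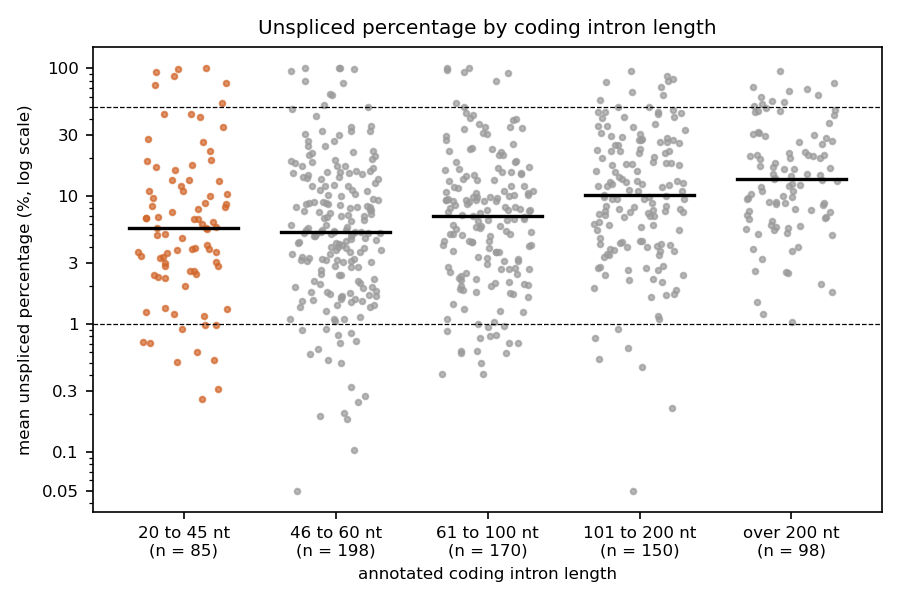
Mean unspliced percentage (log scale) of every measured gene with a single coding intron, by intron length, with ribosomal, mug, meu and mrp symbols left out. Bars mark medians, which run from 5.67% at 20 to 45 nt and 5.24% at 46 to 60 nt to 13.6% over 200 nt. Dashed lines mark 1% and 50%, and genes at 0% are drawn at 0.05%.

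The splice sites of the members varied at the 5′ end. The hexamer GTAAGT began 22 of the 68 (32.4%), GTATGT 13 (19.1%) and GTAAGA 10, and other hexamers began 23. Under the same filters GTAAGT and GTATGT began 30.8% and 22.5% of the introns of 46 to 60 nt. Over 200 nt they began 47.1% and 31.0%. Of the members, 4 did not begin with GTA. Besides chp2 these 4 were SPBP23A10.17 (GTGTGT), SPBC8D2.16c (GTTTGA) at 6.20% and 7.03%, and eif21 (GTTCGT) at 6.51% and 4.56%. The libraries gave 8.04% and 12.2% for SPBP23A10.17, so these 3 lay below the 41.7% of chp2. Over all 85 measured short introns, the 7 that did not begin with GTA had a median of 41.7%, against 5.05% for the 78 that did. At the 3′ end, 52 introns ended in TAG (76.5%), 9 in CAG and 7 in AAG, with medians of 5.32%, 12.1% and 7.95%. In the measured coding introns over 45 nt, 78.6% ended in TAG, and the medians were 7.74% for TAG, 10.1% for CAG and 6.62% for AAG.

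A branch site match lay in 48 of the 68 member introns (70.6%). The annotation as a whole holds 1189 coding introns of 20 to 45 nt, of which 68.2% have such a match, so the members were close to that background. Among measured introns over 45 nt, which offer more room for one, the share was 82.0%. Searching was on the transcript strand only, and the last match was used where there were several, as in 6 members. Bases following the branch adenosine to the intron end numbered 5 to 28 in the members, with a median of 10, against 12 in the longer introns. In 46 of the 48 this distance lay within 5 to 15 nt. The exceptions were cue2, at 28 bases, and rpb2, at 26. The adenosine itself followed a median of 31.0 intron bases in the members and 71.0 in the longer introns. The stretch after the branch site differed less in length than the stretch before it. Introns were chosen by length and the last match was taken, so this comparison was partly set by the rule.

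**Figure D4:**
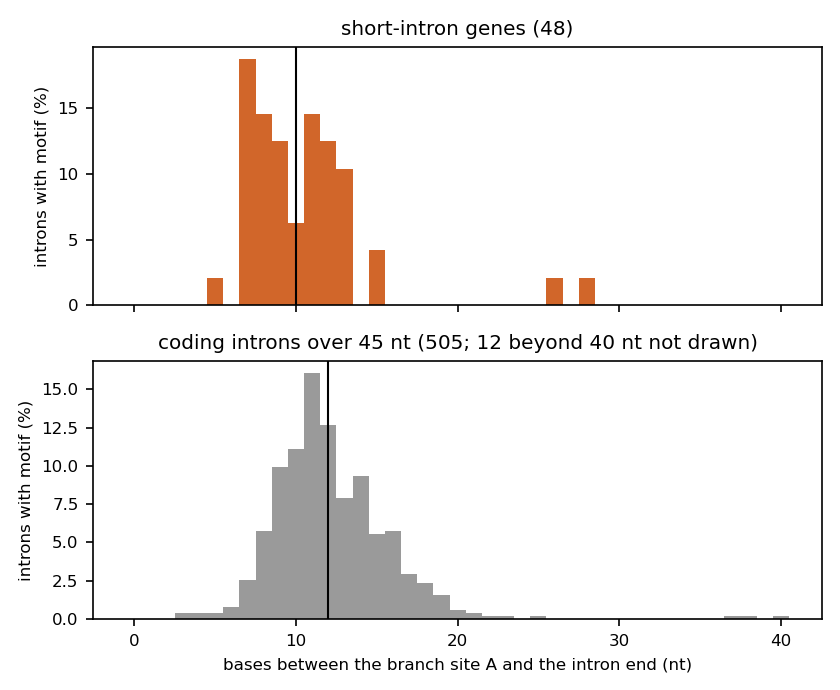
Bases that follow the branch site adenosine to the intron end (x axis, nt) as a percentage of introns with a match (y axis), for 48 short-intron genes above and 505 longer coding introns below. Vertical lines mark the medians of 10 and 12, and longer introns with over 40 bases after the adenosine are not drawn.

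Members without a match were not uniformly poorly spliced. Medians were 6.34% in the 20 without one and 5.73% in the 48 with one, and among the 7 members at 20% or more there were 4 without. Of the 20 introns, 17 held TTAAC or TTAAT, near relatives of the searched letters that were looked for after the values had been seen. Of the members, msh3, efr3 and noc3 held none of the 6 motifs. They are printed here because a branch site could not be placed in them by these letters.

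msh3, chrI:2857428-2857462, plus strand: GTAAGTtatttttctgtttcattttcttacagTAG
efr3, chrIII:265645-265684, plus strand: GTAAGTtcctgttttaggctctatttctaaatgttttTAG
noc3, chrII:3545803-3545847, minus strand: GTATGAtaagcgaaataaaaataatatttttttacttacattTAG

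The gene msh3 was at 26.6% ± 10.7, efr3 at 8.63% ± 4.05 and noc3 at 2.42% ± 1.97 (SD, n = 2 each), so the lack of the letters went with both high and low values. Over all 85 measured introns of 20 to 45 nt, 7 held none of the 6 and had a median of 53.2%, and 22 with TTAAC or TTAAT alone had 5.32%. Of these 7, 5 were above 10%, including met6, apn2, fmd3 and SPBC409.08. In longer introns, 11 held none and had a median of 18.6%, against 7.84% for 505 with a match. No match says only that these letters were not in the intron.

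GC content, place in the gene and exonic count also varied with the level. In the 34 members with intron GC above its median of 28.0%, the median unspliced percentage was 7.40%, against 3.83% in the other 34. Members whose intron followed over 500 coding bases had a median of 6.69% (17 genes), those after over 100 to 500 bases 6.79% (23 genes) and those within the first 100 bases 3.83% (28 genes). The same 3 classes of the 85 measured short introns had 10.9%, 6.73% and 3.35%, and those of the longer introns 8.23%, 8.54% and 6.70%. Spearman correlation across the 68 members was 0.37 with GC content, 0.33 with the relative position in the coding sequence and -0.42 with the exonic count. In the 85 measured short introns, without the window, these were 0.47, 0.45 and -0.49. In 616 longer introns, also without the window, they were 0.28, 0.13 and -0.46. These are descriptions across genes that share libraries, and exonic counts depend on primers as well as on RNA level.

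An annotated gene on the opposite strand, in most cases a long non-coding RNA, overlapped 44 of the 68 member introns. In 4 of them it was protein-coding. The median was 7.17% in those 44, against 4.89% in the 24 with none. Of the 20 members at 10% or more, 16 had such a gene, and of the 7 at 20% or more, 6 had one. In the longer introns 59.1% were overlapped, with medians of 9.41% and 5.73%. Reverse transcription began at gene-specific primers, as described above, but how the counting step treated strand is unknown. The part of antisense reads in these values was not tested.

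The reading frame was computed for a transcript in which the intron is kept, as a property of the sequence and not a measurement. In 57 of the 68 members (83.8%) the first stop codon would lie in the intron or across its edge, and in 9 after it. The length was a multiple of 3 in 25 members. Translation would end before 10% of the annotated protein length in 22 members and before 50% in 46. In myo1 and slx9 the intron directly follows the start codon, after 3 coding bases, as in paf1. At the other extreme stands cwf26, where 99.7% of the protein length would be read before the stop. Members with the stop further on had a median unspliced percentage of 12.1%, against 5.64% where it lay in the intron. Among longer introns the order was the opposite, at 5.24% for 34 genes and 8.28% for 573.

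For mks1 and bub3 alone among the members, the frame would run through the intron to the annotated stop. Both introns are 45 nt long, so that 15 codons would be added to 580 and 320. They are printed with that of etp1, the only other measured short intron of this kind.

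mks1, chrI:1262610-1262654, minus strand: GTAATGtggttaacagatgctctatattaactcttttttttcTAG
bub3, chrI:2506940-2506984, minus strand: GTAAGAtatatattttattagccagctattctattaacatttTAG
etp1, chrI:5037447-5037491, minus strand: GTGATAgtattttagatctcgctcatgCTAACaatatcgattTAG

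Unspliced transcripts were common in all 3. The values were 22.3% and 16.1% for mks1, 14.4% and 20.8% for bub3, and 87.8% and 85.4% for etp1, all above the member median in each library. Among the longer coding introns 6 kept the frame in this way, with a median of 4.76% and a range of 1.09% to 78.7%. Neither mks1 nor bub3 held one of the 4 branch site forms, while each held TTAAC, and etp1 held CTAAC. An antisense non-coding RNA is annotated over both mks1 and bub3.

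**Figure D5:**
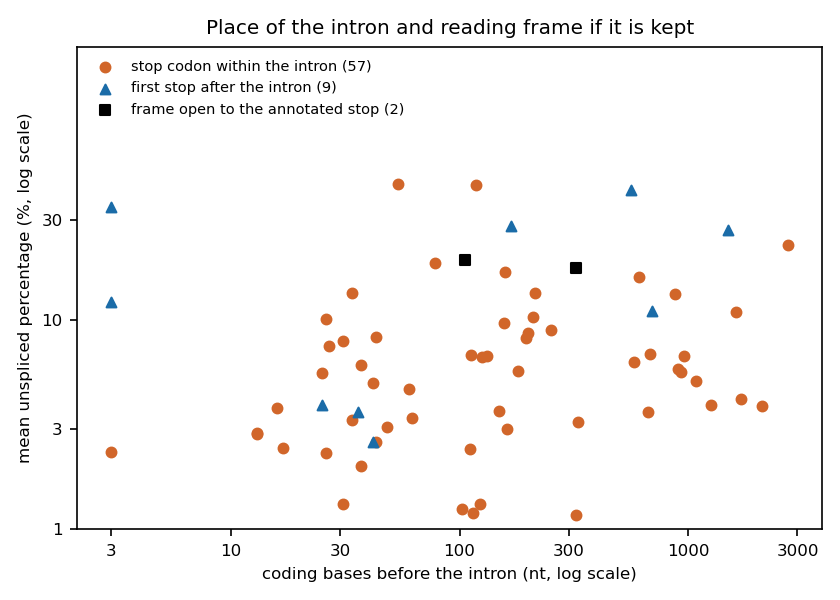
Mean unspliced percentage (y axis, log scale) of the 68 short-intron genes against the number of coding bases before the intron (x axis, log scale). Symbols show where the first stop codon would lie if the intron were kept, and the squares are mks1 at 19.2% and bub3 at 17.6%.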

How the data were processed

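Libraries were made by MPE-seq from total RNA extracted with phenol and chloroform, per the labels' protocols. Each deposited file lists genes with raw counts of 3 classes, exonic, mature and premature, per the file headers. Of tools, Trimmomatic 0.35, HISAT2 2.1.0 and HTSeq appear, with no roles, per the submitters' processing notes. Not given in the sources used here are the class definitions, the build, the strand setting and any molecular identifiers. Replicate 1 held 5796068 exonic, 634306 mature and 53090 premature counts, and replicate 2 held 10009017, 1194460 and 82204. The premature class was read as unspliced.

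Gene IDs were matched to RefSeq (ASM294v3), for 1141 of 1144 genes. Gaps between exons under 20 nt were not taken as introns. Unspliced shares were compared between libraries with Fisher's exact test over 864 genes and exonic counts with an exact binomial test over 1093 genes, each with 50 counts or more per library, both adjusted by Benjamini-Hochberg at 0.05 across all genes tested. These tests compare 2 libraries and no conditions. The tests were run on simulated counts with counting noise only, so that check does not cover any further spread between libraries. Scaling and dispersion in the alternatives came from R 4.3.3 with DESeq2 1.42.0 and edgeR 4.0.16. All else ran in pandas 2.3.3, numpy 2.4.6 and scipy 1.17.1 under Python 3.11.15.

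The members, lists and tests were chosen with earlier results of these data known. Genes named with both libraries' values were taken as the 8 highest, 8 lowest, 6 best counted, 6 with the widest gap between libraries and 6 shortest introns, the genes next to each limit and genes of listed symbol groups. The remaining members are named by role to account for all, and a few genes were singled out after their values had been seen. The zero count limit is 3 counts. Of the members, 1 enters all counts and medians but is not reported here by itself.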

Additional observations from a re-analysis of the deposited data

How the results depend on the processing

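The rule took 90 genes at a minimum of 20 counts and 24 at 200. The member median was 4.49% at a minimum of 200, and that of all measured introns of 20 to 45 nt was 3.35%. From 1 library alone, the member median ran from 5.78% to 6.22%, the number of members from 70 to 81, and the median of all measured short introns from 5.76% to 6.19%, with members chosen anew each time. Without members that have an annotated gene on the opposite strand, a setting chosen after seeing the data, the median was 4.89%. No member was called for unspliced share at a minimum of 20 or 200, without a minimum, or when scaled by an overdispersion of 1.58, where 8 genes in all were called against 14, and 2 members had an unadjusted p under 0.05. For exonic counts, against 52 members and 795 of 1093 genes as reported, TMM factors called 21 members (8 higher in replicate 2, 13 lower) and 410 genes (246 higher, 164 lower). DESeq2 size factors called 20 members (8 higher, 12 lower) and 403 genes (254 higher, 149 lower). Calls by edgeR's exact test were 0 for members and 0 for all genes, which carries no information, since its dispersion was estimated from the difference between these same 2 libraries. CTAAC alone was found in 21 member introns, and with TTAAC and TTAAT added, a choice made after seeing the data, 65 held a match. The causes were not tested beyond the number of genes each setting keeps. No paired analysis was possible because there is 1 group. Counts per member limit most single values to a few percentage points.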
